A study of Mus musculus with 14 samples.

Results

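The transcripts described here belong to the cytokine JAK-STAT relay and were chosen by symbol: the transcription factors Stat3, Stat4, Stat5a, Stat5b and Stat6, the kinases Jak2 and Jak3, the kinases Pim1 and Pim2, and the inhibitor Cish. All 10 were found in both deposited tables, among 12843 genes in the table with IFN-beta and 14732 genes in the table without it. Cytokine receptors of this family have no kinase of their own, and Janus kinases bound to their tails phosphorylate STAT proteins, which then enter the nucleus and act on target genes. In CD8 T cells these routes carry signals of IL-2, IL-7, IL-15, IL-12, IL-21 and the interferons, which bear on survival, division and differentiation. Pim1, Pim2 and Cish are known targets of STAT5, and Cish and its relatives of the SOCS family damp the pathway.

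Naive CD8 T cells, sorted from spleens of C57BL/6 mice by high CD62L and low CD44, were sequenced after 6 h in culture on 1 µg/mL plate-bound anti-CD3 with 1 µg/mL soluble anti-CD28. One setting also received 20 ng/mL IFN-beta, a type I interferon. The 4 groups were Morrbid-/- with IFN-beta (4 libraries), wild type with IFN-beta (4 libraries), Morrbid-/- without IFN-beta (3 libraries) and wild type without IFN-beta (3 libraries). Morrbid is a long noncoding RNA gene; the deleted segment of the mutant allele is not stated in the labels, nor whether libraries came from separate animals, so p-values measure the spread between these libraries, which may be technical.

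Recovered reads per library were 7132515 to 7355337 in the libraries labelled Morrbid-/- and 5788070 to 6918633 in wild type with IFN-beta. Without it they were 1747634 to 2443158 in the libraries labelled Morrbid-/- and 2360619 to 2963149 in wild type. Reads of Morrbid itself (listed as Gm14005) summed to 18 over the 3 libraries labelled Morrbid-/- and to 8 over the 3 wild-type libraries without IFN-beta. This transcript therefore did not mark the mutant label without IFN-beta. It was not among the genes listed with IFN-beta, so it could not be used to check the label there. The group is called by its label throughout. Of 9 CD8 T cell markers, all were detected in both settings. Their summed normalized count was 9245 to 10320 in the libraries labelled Morrbid-/- and 9748 to 10430 in wild type with IFN-beta. Without IFN-beta the sums were 4109 to 4612 in the libraries labelled Morrbid-/- and 4373 to 5154 in wild type. The B cell markers Ms4a1, Pax5 and Blk, and Cd4 and Zbtb7b of CD4 T cells, were absent or at 0 in every library. The B cell list, with 2 of its 6 markers detected, summed to 12.6 to 28.4 in the libraries labelled Morrbid-/- and 9.34 to 18.9 in wild type with IFN-beta. Without IFN-beta it summed to 0 to 5.24 in the libraries labelled Morrbid-/- and 3.82 to 5.36 in wild type.

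Because the results turn most on Jak2 and Pim2, and because Cish differed most in level between the settings, the DNA around their starts is shown from RefSeq (GRCm38.p6). Each window holds the 250 bases before the gene's start and the 30 bases from it, on the plus strand. Capitals mark TTCNNNGAA, the palindromic core bound by STAT proteins, which reads the same on both strands. The windows are chr9:107296409-107296688 for Cish, chrX:7878056-7878335 for Pim2 and chr19:29251553-29251832 for Jak2.
Cish: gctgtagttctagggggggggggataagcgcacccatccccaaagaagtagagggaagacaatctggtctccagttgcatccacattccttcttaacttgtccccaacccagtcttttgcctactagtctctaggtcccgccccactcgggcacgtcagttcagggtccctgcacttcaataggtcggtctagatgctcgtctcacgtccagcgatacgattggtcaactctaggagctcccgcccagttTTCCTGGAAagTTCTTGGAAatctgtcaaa
Pim2: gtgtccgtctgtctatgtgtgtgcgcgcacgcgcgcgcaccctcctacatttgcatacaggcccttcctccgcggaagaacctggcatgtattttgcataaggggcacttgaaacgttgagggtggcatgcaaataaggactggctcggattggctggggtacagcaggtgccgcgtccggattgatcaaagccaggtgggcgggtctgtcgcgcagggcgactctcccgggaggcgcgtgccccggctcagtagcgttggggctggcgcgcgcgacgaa
Jak2: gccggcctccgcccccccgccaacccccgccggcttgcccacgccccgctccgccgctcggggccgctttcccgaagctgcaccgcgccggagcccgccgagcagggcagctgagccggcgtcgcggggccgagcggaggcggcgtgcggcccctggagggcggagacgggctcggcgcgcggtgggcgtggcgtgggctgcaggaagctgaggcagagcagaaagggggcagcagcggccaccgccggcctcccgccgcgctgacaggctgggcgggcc

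Cish was the 1 member of 10 with TTCNNNGAA in such a window, counting all 14 windows of the members. Its 2 matches, TTCCTGGAA and TTCTTGGAA, begin 0 and 11 bases after the gene's start. Of 32851 mouse windows of the same length, 7.83% held at least 1 match and 0.408% held 2 or more. A match describes these letters and is not a binding site, and its absence says nothing of the factor.

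With IFN-beta, 2 of the 10 transcripts rose in the libraries labelled Morrbid-/-, Jak2 and Stat4, and none fell. Values are deposited normalized counts, and a call is a limma adjusted p (Benjamini-Hochberg over all genes tested) under 0.05 on log2(normalized count + 1). All 10 passed the filter of a mean of at least 10. Over all 9964 genes tested in this setting, 10.1% were called, 5.25% as higher and 4.84% as lower, and the median log2 change was 0.13 over the 10 members and 0.0015 over all genes. Of all calls with IFN-beta, 523 were higher and 482 lower, and after rescaling libraries to equal totals 730 were higher and 344 lower. Groups did not overlap for Jak2, Stat4 and Pim2, each higher, which is 3 of 10 beside 15.2% of all genes without overlap and 7.58% without overlap and higher. In bulk RNA, fewer cells of a type and less RNA per cell cannot be told apart.

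**Figure D1:**
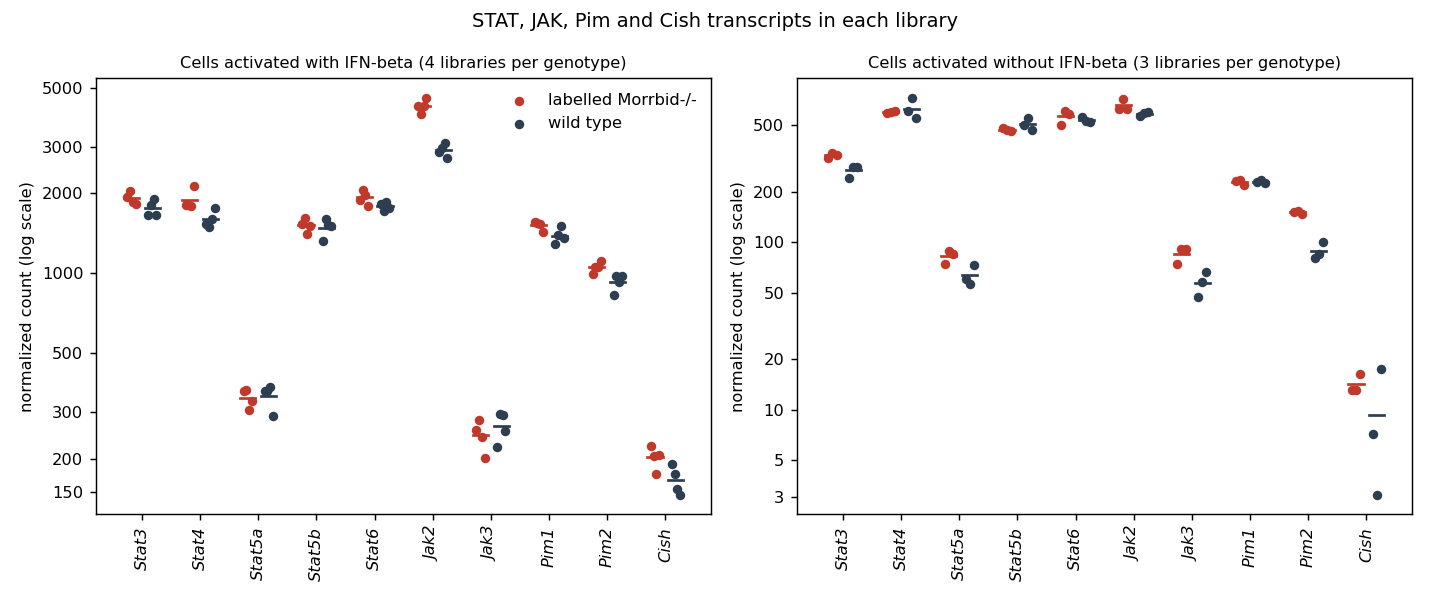
Normalized count (log scale) of each of the 10 transcripts in every library, labelled Morrbid-/- in red left of wild type in dark blue, with IFN-beta in the left panel and without it in the right. Bars are group means; Jak2 with IFN-beta (3967 to 4563 in the libraries labelled Morrbid-/-, 2706 to 3104 in wild type) and Pim2 without it (148 to 153 in the libraries labelled Morrbid-/-, 80.4 to 100.1 in wild type) are the pairs set widest apart for their spread.

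Jak2, the Janus kinase of the IL-12 and IFN-gamma receptors (chr19:29251803-29313095), made the largest called change of the group with IFN-beta. Its normalized counts were 4277, 3967, 4251 and 4563 in the libraries labelled Morrbid-/-, against 2850, 2968, 3104 and 2706 in wild type. The lowest library labelled Morrbid-/- stood above the highest wild-type library. It averaged 4264 ± 244 in the libraries labelled Morrbid-/- and 2907 ± 170 in wild type (SD, n = 4 each), and limma gave a log2 change of 0.55 ± 0.06 (SE, adjusted p = 9.93e-07), or 1.47-fold. By p, Jak2 ranked 15 of the 9964 genes. The call was kept on leaving out each of the 8 libraries, with adjusted p-values of 5.70e-07 to 1.55e-05, and in all 13 other settings tried, where the highest was 0.0160.

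Without IFN-beta, Jak2 had 629, 716 and 624 in the libraries labelled Morrbid-/-, against 570, 591 and 597 in wild type. The groups did not overlap here either, but the change of 0.16 (SE 0.10) had a limma adjusted p of 0.878. The genotype change with IFN-beta minus that without was 0.39 (SE 0.10; limma adjusted p = 0.0563), which missed the threshold. It passed in 5 of 12 other settings, and on leaving out replicate 2 labelled Morrbid-/- without IFN-beta (adjusted p = 0.0295), replicate 2 labelled Morrbid-/- with it (0.0483) or wild-type replicate 3 with it (0.0416). No stretch of 75 bases in Jak2 exons was shared with another annotated gene.

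Stat4, the STAT that IL-12 activates (chr1:51987106-52107189), was also set apart by genotype with IFN-beta. Its normalized counts were 1806, 1810, 1786 and 2130 in the libraries labelled Morrbid-/-, against 1535, 1489, 1602 and 1759 in wild type. Replicate 4 labelled Morrbid-/- stood above the other three, which lay close together, and the groups did not overlap. It averaged 1883 ± 165 in the libraries labelled Morrbid-/- and 1596 ± 118 in wild type (SD, n = 4 each), and limma gave a log2 change of 0.24 ± 0.07 (SE, adjusted p = 0.0247). The call was lost without replicate 4 labelled Morrbid-/- (adjusted p = 0.0931), wild-type replicate 1 (0.0764) or wild-type replicate 2 (0.0962). It was also lost when limma ran without its mean-variance trend (0.176) and in one fit of all libraries (0.0816).

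Without IFN-beta, Stat4 had 589, 602 and 605 in the libraries labelled Morrbid-/-, inside the wild-type values of 612, 725 and 550. The change was -0.062 (SE 0.10; limma adjusted p = 0.971), and its difference between settings was 0.30 (SE 0.12; adjusted p = 0.304). Of the 75-base stretches of Stat4 exons, 19.5% also lie in the overlapping noncoding model Gm28177. Stat4 reads may be divided between both if both were counted, but no gene of that symbol was listed in either setting.

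Without IFN-beta, 1 of the 10 transcripts rose in the libraries labelled Morrbid-/-, Pim2, and none fell. Over all 9290 genes tested there, 0.635% were called, 0.538% as higher and 0.0969% as lower. Groups did not overlap for Stat3, Stat5a, Jak2, Jak3 and Pim2, each higher, which is 5 of 10 beside 10.9% of all genes, or 5.53% higher. The median log2 change was 0.23 over the members and -0.0061 over all genes. The 10 members share their libraries, so these are not separate observations.

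Pim2 (chrX:7878306-7883432) encodes a serine/threonine kinase that needs no activating phosphorylation and promotes survival and growth. Its normalized counts without IFN-beta were 152, 153 and 148 in the libraries labelled Morrbid-/-, against 80.4, 85.3 and 100.1 in wild type. Every library labelled Morrbid-/- was above every wild-type library, with a narrower spread. It averaged 151 ± 2.52 in the libraries labelled Morrbid-/- and 88.6 ± 10.2 in wild type (SD, n = 3 each), and limma gave a log2 change of 0.77 ± 0.14 (SE, adjusted p = 0.00228), or 1.71-fold. The call was kept on leaving out each of the 6 libraries, with adjusted p up to 0.0417, and was lost when limma ran without its mean-variance trend (adjusted p = 0.105).

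Libraries without IFN-beta differed in the share of reads from mitochondrial 16S RNA, at 11.6% to 18.9% in those labelled Morrbid-/- and 12.5% to 18.1% in wild type. Among the 3 with the highest shares, Pim2 was 152 in the library labelled Morrbid-/- and 82.9 on average in the 2 wild-type libraries. Among the other 3, Pim2 averaged 151 in the 2 libraries labelled Morrbid-/- and was 100.1 in the wild-type library. The log2 ratios were 0.87 and 0.59, with no test, since each set has 1 library in one genotype and cannot separate genotype from that library. In the same sets the ratio turned sign for Cish (1.21 and -0.24), Stat4 (-0.18 and 0.14) and Stat6 (-0.11 and 0.20). It also did for Pim1, near 0 (-0.0054 and 0.0054). With the 16S share as a covariate, limma gave 0.75 ± 0.14 (SE) for the log2 change of Pim2, at an adjusted p of 1.44e-04.

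With IFN-beta, Pim2 had 991, 1057, 1059 and 1114 in the libraries labelled Morrbid-/-, against 825, 976, 930 and 976 in wild type. The groups did not overlap but lay close, and the change of 0.19 (SE 0.07) had a limma adjusted p of 0.0816. It passed after rescaling to equal totals (adjusted p = 0.0329). The genotype change of Pim2 with IFN-beta minus that without was -0.58 (SE 0.13; limma adjusted p = 0.0101), beside 1.33% of 9078 genes called for such a difference, 0.441% as higher and 0.892% as lower. This was the 1 member of 10 called, and leaving out any of the 14 libraries left it called, with adjusted p up to 0.0343. Without the trend its adjusted p was 0.0689.

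**Figure D2:**
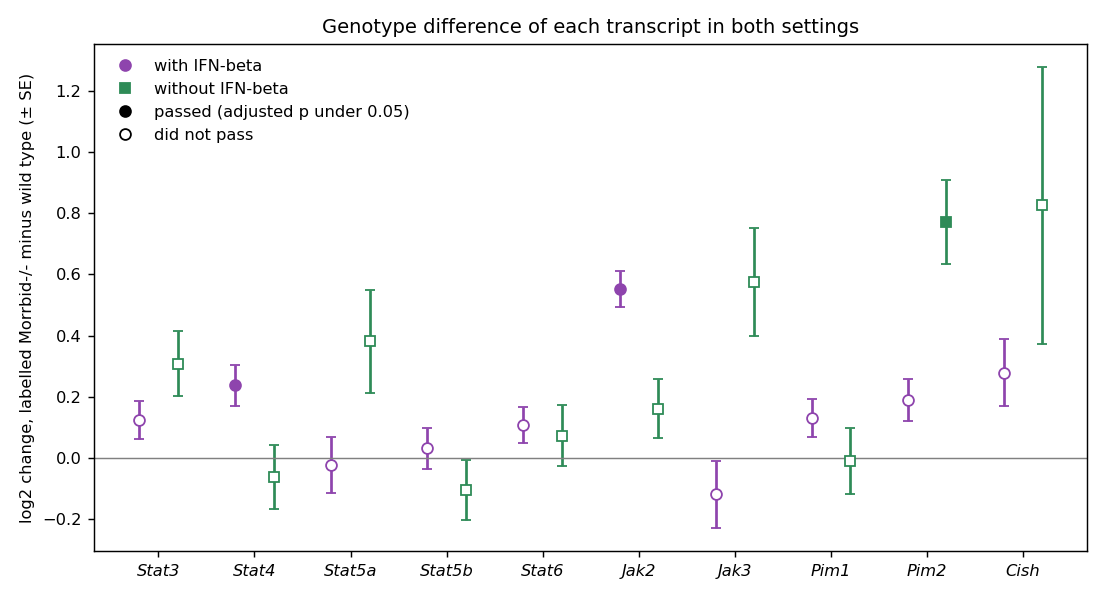
Log2 change, labelled Morrbid-/- minus wild type, of each transcript with IFN-beta (circles) and without it (squares), with bars of 1 SE from limma. Filled symbols, with adjusted p under 0.05, are Jak2 and Stat4 with IFN-beta and Pim2 without it; the Cish bar without IFN-beta is the longest.

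Pim1 (chr17:29490785-29496111) encodes a relative of Pim2 with a similar kinase domain. Without IFN-beta it averaged 229 ± 8.07 in the libraries labelled Morrbid-/- and 230 ± 4.27 in wild type (SD, n = 3 each; log2 change -0.0091, limma adjusted p = 0.994, and 0.042 after rescaling to equal totals). With IFN-beta it had 1561, 1544, 1535 and 1424 in the libraries labelled Morrbid-/-, against 1291, 1391, 1504 and 1356 in wild type. These ranges overlap, and the change was 0.13 (SE 0.06; limma adjusted p = 0.192). The antisense model Gm26885 covers 14.5% of Pim1 exon bases, and the strand setting of the counting is not given in the sources used here.

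Jak3 (chr8:71676383-71690577) is the kinase paired with the common gamma chain of the IL-2, IL-7, IL-15 and IL-21 receptors. Without IFN-beta it had 74.0, 91.7 and 91.1 in the libraries labelled Morrbid-/-, against 47.4, 58.3 and 66.5 in wild type. The groups did not overlap, yet the change of 0.58 (SE 0.18) had a limma adjusted p of 0.303. With IFN-beta it had 257, 280, 242 and 202 in the libraries labelled Morrbid-/-, within the wild-type values of 222, 295, 293 and 254 but for the lowest.

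With IFN-beta the Jak3 change was -0.12 (SE 0.11; limma adjusted p = 0.552). Its difference between settings was -0.69 (SE 0.20; adjusted p = 0.0866). That difference passed without replicate 1 labelled Morrbid-/- without IFN-beta (adjusted p = 0.0445) or wild-type replicate 3 without IFN-beta (0.0366), and with the 16S share as a covariate (-0.80, 0.0061). Jak3 shares 6.01% of its 75-base stretches with Insl3, which averaged 6.14 with IFN-beta and 0.768 without.

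Stat3 (chr11:100886806-100939594), which IL-6, IL-10 and IL-21 activate, had 319, 343 and 334 without IFN-beta in the libraries labelled Morrbid-/-, against 243, 280 and 283 in wild type. The groups did not overlap, and the change was 0.31 (SE 0.11; limma adjusted p = 0.462). With IFN-beta it averaged 1912 ± 90.1 in the libraries labelled Morrbid-/- and 1756 ± 121 in wild type (SD, n = 4 each; log2 change 0.12, limma adjusted p = 0.213). The spread of both genotypes overlapped there.

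Stat5a and Stat5b, neighbouring genes on chromosome 11 (100859351 to 100885169 and 100780731 to 100859004), encode near-identical mediators of IL-2 and IL-7 signals. Without IFN-beta Stat5a had 74.0, 89.1 and 84.9 in the libraries labelled Morrbid-/-, against 60.8, 56.2 and 73.4 in wild type. The lowest of the first group was just above the highest of the second, and the change was 0.38 (SE 0.17; limma adjusted p = 0.769). Stat5b averaged 470 ± 10.7 in the libraries labelled Morrbid-/- and 507 ± 41.3 in wild type there (SD, n = 3 each; log2 change -0.11, adjusted p = 0.943 by limma).

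With IFN-beta the log2 changes were -0.022 for Stat5a (limma adjusted p = 0.918) and 0.031 for Stat5b (adjusted p = 0.825). The sign of Stat5a turned after rescaling to equal totals (0.018) and that of Stat5b with the 16S share as a covariate (-0.031). The pair shares 387 stretches of 75 bases, 5.12% of those of Stat5a and 6.99% of those of Stat5b.

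Stat6 (chr10:127642955-127660987), which IL-4 activates, averaged 1928 ± 111 in the libraries labelled Morrbid-/- and 1789 ± 60.9 in wild type with IFN-beta (SD, n = 4 each). Without IFN-beta it averaged 566 ± 55.7 in the libraries labelled Morrbid-/- and 536 ± 21.0 in wild type (SD, n = 3 each). The changes were 0.11 (limma adjusted p = 0.273) and 0.072 (adjusted p = 0.963), within the spread of the libraries.

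Cish (chr9:107296659-107302784), the SOCS-family inhibitor with the start-site matches printed above, was the lowest of the 10. With IFN-beta it had 223, 205, 174 and 206 in the libraries labelled Morrbid-/-, against 191, 175, 154 and 146 in wild type. The ranges overlap, and the change was 0.28 (SE 0.11; limma adjusted p = 0.113). Without IFN-beta it rested on 13, 10 and 16 reads in the libraries labelled Morrbid-/- and on 8, 3 and 23 in wild type.

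The wild-type libraries enclose the others on both sides, and the change of 0.83 (SE 0.45; limma adjusted p = 0.868) was the least precise of the group. No genotype difference in Cish was called in either setting. The genotype change with IFN-beta minus that without did not pass for Cish (-0.55, limma adjusted p = 0.643), Stat5a (-0.40, 0.312) or Stat3 (-0.18, 0.540), nor for Stat5b, Stat6 and Pim1. Antisense and pseudogene models overlap 4.07% (Gm17040) and 7.46% (Gm17041) of Cish exon bases.

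Levels with and without IFN-beta stand side by side as RPM, recovered reads scaled to one common library total, since the tables were normalized separately and were not tested against each other. The median ratio of IFN-beta to no IFN-beta over 9078 genes was 0.701 in the libraries labelled Morrbid-/- and 0.694 in wild type. Upper quartiles were 0.919 in the libraries labelled Morrbid-/- and 0.898 in wild type. All 10 members lay above the upper quartile in both genotypes, and Stat4 in wild type, at 0.907, had the lowest ratio.

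Cish had the largest ratio, with 30.7 and 6.12 RPM with and without IFN-beta in the libraries labelled Morrbid-/-, and 24.6 and 3.95 in wild type. The ratio was 5.01 in the libraries labelled Morrbid-/- and 6.23 in wild type. Pim2 had 160 and 64.9 in the libraries labelled Morrbid-/- (2.47) and 137 and 36.9 in wild type (3.71). Jak2 had 647 and 282 in the libraries labelled Morrbid-/- (2.29) and 429 and 243 in wild type (1.77). Of these, Pim2 has the larger ratio in wild type and Jak2 in the libraries labelled Morrbid-/-.

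Ratios in the libraries labelled Morrbid-/- were 2.34 for Pim1 and 2.04 for Stat3, and in wild type they were 2.14 for Pim1 and 2.32 for Stat3. In 6 of the 10 transcripts, Stat3, Stat5a, Jak2, Pim1, Pim2 and Cish, every library with IFN-beta was above every library without it. The ranges overlapped for Stat4, Stat5b, Stat6 and Jak3. The share of all genes without such overlap was not counted, so 6 of 10 cannot be called more than usual. Reads per library also differed between the settings. Jak3 had 37.2 and 36.9 RPM with and without IFN-beta in the libraries labelled Morrbid-/- (1.01) and 39.3 and 23.9 in wild type (1.64).

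**Figure D3:**
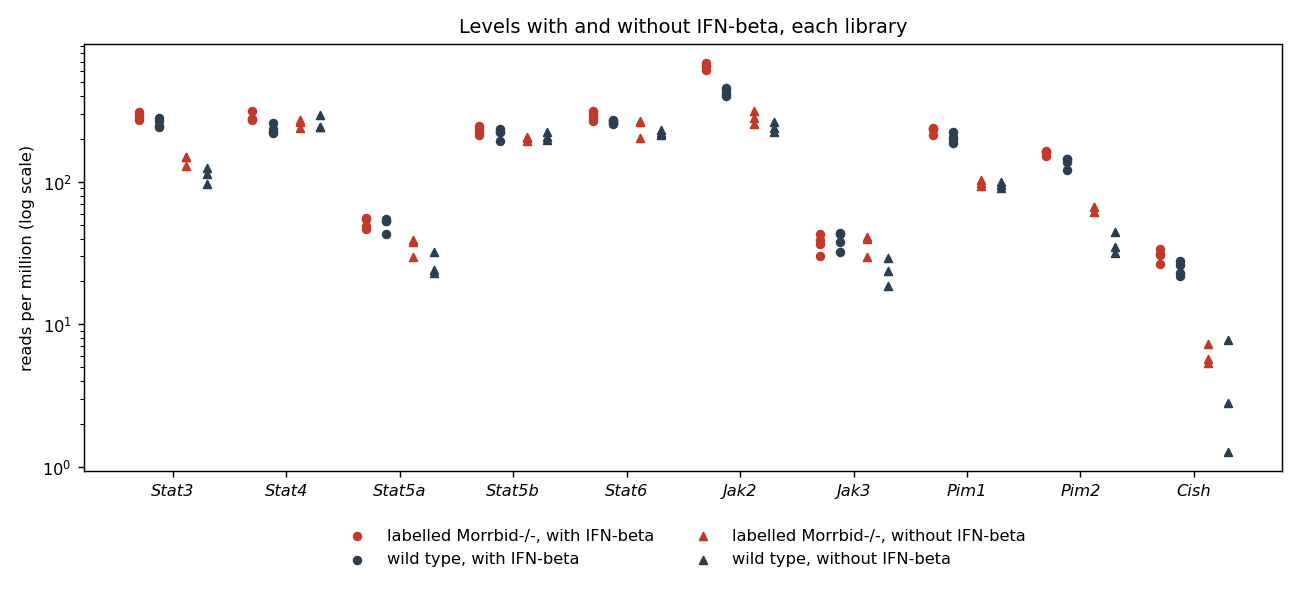
RPM (reads scaled to one common library total, log scale) in each library, with IFN-beta as circles and without it as triangles, labelled Morrbid-/- in red left of wild type in dark blue. Cish shows the widest gap between settings, and the ranges with and without IFN-beta overlap for Stat4, Stat5b, Stat6 and Jak3.

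Per kilobase of exon (RPKM), the order of levels was alike in both genotypes. With IFN-beta Jak2 was first, at 129 ± 6.01 RPKM in the libraries labelled Morrbid-/- and 85.3 ± 5.12 in wild type. Among libraries with the mutant label, Stat4 (73.8), Pim1 (68.5) and Stat6 (66.6) followed, and the ranges of these neighbours overlapped. In wild type the same 3 were at 60.9 (Stat4), 60.9 (Pim1) and 60.0 (Stat6), also with overlap. After these, Pim2, Stat5b and Stat3 came next in both genotypes, each apart from its neighbours, at 57.3, 41.6 and 30.5 in the libraries labelled Morrbid-/- and 49.0, 39.6 and 27.2 in wild type.

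With IFN-beta Stat5a and Jak3 overlapped each other, at 7.23 (Stat5a) and 6.95 (Jak3) in the libraries labelled Morrbid-/- and 7.16 (Stat5a) and 7.34 (Jak3) in wild type. Cish was last, at 4.78 in the libraries labelled Morrbid-/- and 3.83 in wild type. Without IFN-beta Stat4 came first, at 66.4 in the libraries labelled Morrbid-/- and 67.1 in wild type. Jak2 and Stat6 followed with overlapping ranges, Jak2 at 56.1 in the libraries labelled Morrbid-/- and 48.3 in wild type, and Stat6 at 55.4 in the libraries labelled Morrbid-/- and 50.5 in wild type.

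The ranges of Stat4 and Jak2 overlapped without IFN-beta in the libraries labelled Morrbid-/-, while in wild type Stat4 was apart from the next transcript, Stat6. Pim2 (23.2) and Stat3 (15.0) were apart without IFN-beta in the libraries labelled Morrbid-/-, while in wild type Pim2 (13.2) and Stat3 (11.7) overlapped.

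Across libraries without IFN-beta, some transcripts of this group moved together and others in opposite directions. Pearson correlations of log2(normalized count + 1) were taken over 8 libraries with and 6 without IFN-beta, and they include the genotype difference. Jak2 and Pim2 had 0.75 with and 0.80 without IFN-beta. Stat3 and Jak3 had 0.41 with and 0.98 without it. In contrast, Stat5b and Cish had 0.088 with and -0.97 without IFN-beta, and Stat5a and Stat5b had 0.21 with and -0.89 without it. Jak2 and Pim2 aside, these pairs were picked for extreme values without IFN-beta, and their correlations with it were much weaker. Without it, Stat3 with Jak3 was the highest of all member pairs and Stat5b with Cish the lowest. Those values rest on 6 libraries, and Cish had only 3 to 23 reads in each. By the mean of both correlations among 5620 candidate genes, Syvn1 (0.944) and Cdk5rap1 (0.930) were most like Jak2. Ly6e (0.937) and Ncf1 (0.927) were most like Pim2, and Rnf125 (0.896) and Gtf2i (0.892) most like Stat4.

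A further 66 genes of the pathway were counted by role. With IFN-beta 54 were tested, of which 1 was higher and 6 were lower in the libraries labelled Morrbid-/-, beside 5.25% higher and 4.84% lower of all genes. Without IFN-beta 49 were tested, of which 4 were higher and none lower, beside 0.538% higher and 0.0969% lower of all genes. The median log2 changes were -0.054 with and 0.014 without IFN-beta over these genes, and 0.0015 with and -0.0061 without it over all genes.

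Of 20 receptor chains, 18 were tested with IFN-beta and 3 fell. Il10ra, the signalling chain for IL-10, had 247 ± 12.8 in the libraries labelled Morrbid-/- and 380 ± 25.1 in wild type (log2 change -0.62, limma adjusted p = 2.66e-05). The IL-6 receptor chains Il6ra (-0.32, adjusted p = 0.0187) and Il6st (-0.25, adjusted p = 0.0211) were the others, both by limma. Il6ra was lost without replicate 2 or 4 labelled Morrbid-/- or wild-type replicate 1 (adjusted p 0.0527 to 0.0720). Il6st was lost without replicate 3 or 4 labelled Morrbid-/- or wild-type replicate 1 or 3 (0.0585 to 0.0750).

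Without IFN-beta, 17 chains were tested and 1 rose, Il12rb2, the IL-12 receptor chain that recruits Jak2 and Stat4. It had 55.0 ± 1.28 in the libraries labelled Morrbid-/- and 15.4 ± 8.98 in wild type (SD, n = 3 each; log2 change 1.98, limma adjusted p = 0.00175). Leaving out any single library of the 6 left it called, with adjusted p up to 0.0417.

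Of 18 inhibitors, 17 were tested in each setting. Socs5, an inhibitor of the SOCS family, rose with IFN-beta, with 244 ± 37.3 in the libraries labelled Morrbid-/- and 185 ± 38.4 in wild type (log2 change 0.40, limma adjusted p = 0.0417). It was lost without replicate 3 or 4 labelled Morrbid-/- or wild-type replicate 1, 2 or 4 (adjusted p 0.104 to 0.127). Usp18, which blocks the type I interferon receptor, rose without IFN-beta, with 28.6 ± 0.216 in the libraries labelled Morrbid-/- and 10.8 ± 2.15 in wild type (1.34, limma adjusted p = 0.0284). It was lost without any library labelled Morrbid-/- or wild-type replicate 2 or 3 (0.0510 to 0.199).

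Ligands were scarce. Of 10, 2 passed the filter with IFN-beta and none without it. Lif had 106 ± 46.4 in the libraries labelled Morrbid-/- and 139 ± 28.3 in wild type (-0.50, limma adjusted p = 0.197), and Osm had 43.3 ± 9.85 in the libraries labelled Morrbid-/- and 51.9 ± 8.48 in wild type (-0.27, adjusted p = 0.435). Il2 averaged 0.228 in the libraries labelled Morrbid-/- and 0.548 in wild type with IFN-beta. Without it, Il2 averaged 2.38 in the libraries labelled Morrbid-/- and 0.808 in wild type. Ifng with IFN-beta averaged 12.3 (6.29 to 23.8) in the libraries labelled Morrbid-/- and 4.56 (2.34 to 5.90) in wild type. Without IFN-beta it averaged 6.50 (5.24 to 7.16) in the libraries labelled Morrbid-/- and 5.58 (3.06 to 8.32) in wild type. Il2 and Ifng were below the filter, were not tested, and are given outside the rule for named genes.

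Of 18 target genes, 17 were tested with IFN-beta and 3 fell. Il18r1, a chain of the IL-18 receptor, had 1627 ± 126 in the libraries labelled Morrbid-/- and 2375 ± 160 in wild type (log2 change -0.55, limma adjusted p = 5.02e-06). The anti-apoptotic gene Bcl2 had 549 ± 37.0 in the libraries labelled Morrbid-/- and 838 ± 108 in wild type (-0.60, adjusted p = 2.80e-05 by limma). Irf1, an interferon-induced transcription factor, was the other (-0.19, limma adjusted p = 0.0246). It was lost without replicate 1 or 3 labelled Morrbid-/- or wild-type replicate 2 or 4 (adjusted p 0.0653 to 0.0743).

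Without IFN-beta, 15 targets were tested and 2 rose. Irf1 had 601 ± 47.8 in the libraries labelled Morrbid-/- and 395 ± 14.7 in wild type (SD, n = 3 each; log2 change 0.60, limma adjusted p = 7.76e-04). Eomes, a transcription factor of CD8 memory cells, had 92.8 ± 7.84 in the libraries labelled Morrbid-/- and 52.2 ± 11.8 in wild type (0.84, limma adjusted p = 0.0223). It was lost without any library labelled Morrbid-/- or wild-type replicate 2 (adjusted p 0.0566 to 0.197).

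Between settings, 4 of 49 pathway genes differed in their genotype change, each lower with IFN-beta than without. Over all 9078 genes tested for this difference, 1.33% were called, 0.892% as lower and 0.441% as higher. The 4 pathway genes, by limma, were Il12rb2 (-2.01, adjusted p = 0.00106), Usp18 (-1.29, adjusted p = 2.07e-07), Irf1 (-0.79, adjusted p = 1.07e-05) and Il15ra (-1.34, adjusted p = 0.0483). Il15ra was named after its values were seen, and leaving out any 1 of 9 libraries ended its call (adjusted p 0.0549 to 0.128). Pim2 (-0.58) also differed in the same direction. Without the mean-variance trend limma no longer called, without IFN-beta, Il12rb2 (adjusted p = 0.324), Irf1 (0.217) or Eomes (0.297), nor, with IFN-beta, Il6ra (0.0855), Il6st (0.198), Irf1 (0.155) or Socs5 (0.198). The Il12rb2 difference between settings was lost without the trend (0.0774) and with robust empirical Bayes (0.108). The Il15ra difference was lost without the trend (0.059), with a pseudocount of 5 (0.116) and with quantile normalization (0.0637). After rescaling to equal totals, Il6st (0.0610) and Irf1 (0.0817) with IFN-beta were no longer called. DESeq2 did not call Usp18 (adjusted p = 0.0759) or Eomes (0.0541) without IFN-beta, and edgeR did not call the Il15ra difference (0.144). With the 16S share as a covariate, limma lost Il6ra (0.0632) and Socs5 (0.134) with IFN-beta. In one fit of all libraries it lost Il6st (0.0549), Irf1 (0.0795) and Socs5 (0.0573) with IFN-beta. Without the filter on low values it lost Usp18 without IFN-beta (0.0659), Socs5 with it (0.0503) and the Il15ra difference (0.073).

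**Figure D4:**
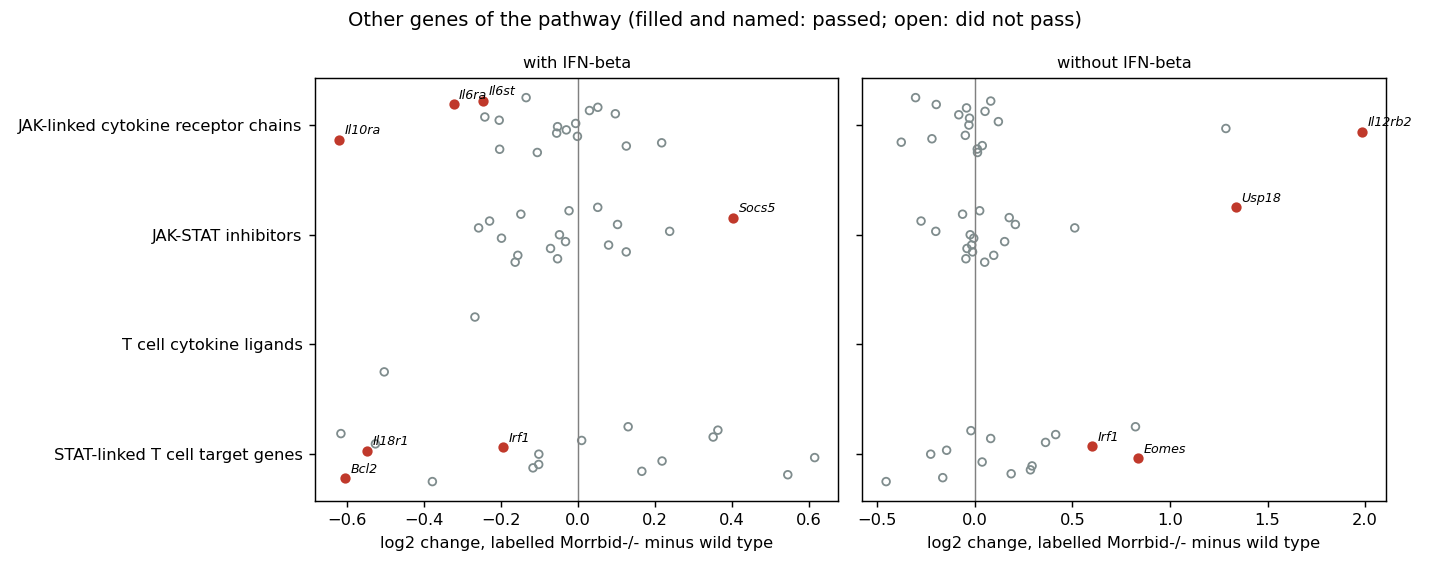
Log2 change, labelled Morrbid-/- minus wild type, of each tested gene of the 4 pathway lists with IFN-beta (left) and without it (right), on axes of different length. Filled and named points passed at a limma adjusted p under 0.05; 6 of the 7 with IFN-beta lie below 0 and all 4 without it lie above 0.

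Some transcripts on marker lists of other cell types, and some markers of the naive T cell state, differed by genotype. With IFN-beta the summed CD4 and regulatory T cell markers (3 of 5 detected, mostly Ikzf2) were 754 to 920 in the libraries labelled Morrbid-/- and 616 to 731 in wild type. Myeloid markers (2 of 8 detected, mostly Cd68) were 17.4 to 35.0 in the libraries labelled Morrbid-/- and 13.3 to 16.3 in wild type, with Lyz2, Csf1r and Cd14 absent or at 0. Of 4 naive T cell markers, Tcf7, Lef1 and Ccr7 were called higher with IFN-beta, and the sums were 21217 to 22904 in the libraries labelled Morrbid-/- and 20809 to 21541 in wild type. Without IFN-beta none of the 4 was called. With IFN-beta every library labelled Morrbid-/- also held more reads than any wild-type library. The part of these differences in the Jak2, Stat4 and Pim2 results was not tested.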

How the data were processed

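The deposited signal values are normalized counts per gene, in 1 table for each setting, made by the authors. Trimmomatic, featureCounts, STAR 2.5, DESeq2 and the build GRCm38 appear in the submitters' processing notes, without roles. Annotation, strand setting and filters are not given in these sources. Dividing each library by its smallest step gave whole reads, within 0.01, for all values, and replicates differed by more than sampling noise. Precision is set by 14 libraries of 1747634 to 7355337 reads; intervals were not computed.

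Genotypes were compared within a table by limma 3.58.1 (R 4.3.3), using the mean-variance trend, on log2 of the normalized count plus a pseudocount of 1. Genes needed a mean of at least 10. Log2 changes are on that scale, which understates changes of low genes. The difference between settings was the interaction contrast of one fit of all 14 libraries. Adjusted p-values are Benjamini-Hochberg values over all genes tested. The members, the pathway lists and the rules for named genes were chosen with earlier results of these data known. All members were named; in each pathway list, up to 4 called genes with the smallest p or else the 2 with the smallest p; and for each called member the 2 most correlated genes. Alternatives included edgeR 4.0.16 and DESeq2 1.42.0 on recovered reads. Values within libraries of like 16S share were added after seeing the data. Lengths come from GENCODE exons, and coordinates and start-site sequences from RefSeq GRCm38.p6. The fits were tested on simulated data. Some results are not reported here.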

Additional observations from a re-analysis of the deposited data

Results flagged for a closer look

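Stat4 with IFN-beta stood at 2130 normalized counts in replicate 4 labelled Morrbid-/-, while the other 3 libraries of that group lay between 1786 and 1810. The gap was 0.931 of the group's range, above Dixon's critical value for 4 samples. This was 1 of 20 groups of 4 examined, and chance alone gives about 1 in 20.

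The genotype change of Pim2 differed between settings by -0.581 on the log2 scale (SE 0.13; limma adjusted p = 0.0101). Pim2 was higher in 3 of 3 libraries labelled Morrbid-/- than in any wild-type library without IFN-beta, and in 4 of 4 with it.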

How the results depend on the processing

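Jak2 with IFN-beta kept its call in each alternative tried, and Pim2 without IFN-beta in each but limma without the trend. Over 30 single-transcript results, 623 of 658 alternative values kept direction and side of the threshold, 7 fell back behind it, 15 passed it and 13 turned sign; the cause was not tested.

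Without the trend, limma called 13 genes higher and 4 lower without IFN-beta, 171 and 134 with it, and 15 and 51 for the difference between settings; of the members it called 0, 1 (Jak2) and 0. One fit of all libraries called 101 higher and 16 lower without IFN-beta and 301 and 253 with it, 1 of them a member. A mean of at least 50 left 5 genes lower without IFN-beta, and the 16S share as a covariate gave 32. For the difference between settings, 1 member (Jak2) was called higher with a mean of at least 50, robust empirical Bayes, the 16S covariate and DESeq2; the covariate called 2 members lower, Jak3 beside Pim2.

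Same-numbered libraries correlated at -0.0210 to 0.204 without IFN-beta and 0.00330 to 0.141 with it. Differently numbered ones had -0.200 to 0.0595 without it and -0.0795 to 0.0370 with it. Most libraries labelled Morrbid-/- were closest to the wild-type library of their number: 1 and 3 without IFN-beta, and 1, 3 and 4 with it. Replicate 2 was not, in either setting. The labels state no pairs, so the main fits used none, and pairing remains possible. A replicate block called 94 genes higher and 75 lower without IFN-beta, 2 of the higher ones members, and 148 and 163 for the difference between settings, with 1 member higher (Jak2) and 2 lower. Under this block Jak3 without IFN-beta had an adjusted p of 0.0470 and Pim2 with IFN-beta 0.0288.

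Leaving out 1 library gave 321 to 555 genes higher and 288 to 466 lower with IFN-beta, 31 to 52 and 6 to 23 without it, and 24 to 47 higher and 71 to 98 lower for the difference. The counts that moved most were 321 and 288 without replicate 2 labelled Morrbid-/- with IFN-beta, 31 higher without replicate 2 and 23 lower without replicate 1 labelled Morrbid-/- without IFN-beta, 18 lower without wild-type replicate 3 without IFN-beta, and 24 higher for the difference without wild-type replicate 1 with IFN-beta. Members called higher ranged from 1 to 2 with IFN-beta and from 0 to 1 for the difference, where 1 to 2 were lower. Changes near 0 turned sign: Pim1 without IFN-beta was 0.042 after rescaling to equal totals and -0.030 to 0.019 on leaving out a library, and Stat5a with IFN-beta 0.018 and -0.10 to 0.027. Stat5b with IFN-beta was -0.031 with the 16S covariate and -0.024 to 0.068 on leaving out a library. Stat4 without IFN-beta ranged from -0.15 to 0.045. The Stat6 difference was -0.0011 after quantile normalization and ranged from -0.048 to 0.090. Without IFN-beta edgeR called 59 genes and DESeq2 52; with it, 1011 and 954; for the difference, 114 and 151. Cish without IFN-beta rested on 3 to 23 reads per library, and the part of depth in its spread was not tested.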

Other observations

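Genes within 500 kb of Jak2 and Pim2 were also read. Near Jak2, 12 were tested with IFN-beta and 1 was called, Plgrkt, lower in the libraries labelled Morrbid-/- (log2 change -0.41, limma adjusted p = 0.00192). Without IFN-beta 10 were tested and 1 was called, Cd274, which encodes the inhibitory ligand PD-L1, higher (0.86, limma adjusted p = 2.34e-04). Near Pim2, 1 of 21 was called with IFN-beta, Pqbp1, higher (0.45, limma adjusted p = 0.0181), and none of 20 without it. Over all genes tested, 10.1% were called with IFN-beta and 0.635% without it. Neither count of neighbours with IFN-beta exceeds that share, and the 1 call without it was not tested against it. The neighbours were named after their values were seen.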
